A study of Mus musculus with 16 samples.

Results

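OCT4 peaks were examined at 10 genes of the WNT and TCF pathway in mouse embryonic stem (ES) cells: Tcf7l1, Tcf7l2, Tcf7, Lef1, Ctnnb1, Gsk3b, Axin2, Sp5, Cdx1 and T. A peak was taken as belonging to a gene when its midpoint lay inside the gene body or within 50 kb of any annotated transcript start of that gene (GENCODE M21, build mm10). This rule selected 53 of the 26704 peaks in the merged OCT4 list of 2TS22C cells, and none of the 53 was shared between 2 of the genes. The rule that assigned peaks to the genes used position only, while the genes themselves were chosen with earlier results of these data known.

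The series asked how loss of SOX2 or OCT4 changes ES cell chromatin and comprised 16 ChIP-seq libraries in 8 groups of 2 replicates, profiling OCT4, BRG1 or the histone mark H3K27ac. The list used here belongs to the 4 OCT4 libraries of 2TS22C cells, a mouse ES cell line in which Sox2 is expressed from a Tet-Off promoter. Of these libraries, 2 came from untreated cells (SOX2 ON) and 2 from cells given 1 µg/ml doxycycline for 26 h (SOX2 OFF), a time at which the study's staining still found some SOX2. All cells were grown in serum with leukemia inhibitory factor (LIF), the GSK3 inhibitor CHIR99021 at 3 µM and the MEK inhibitor PD184352 at 0.8 µM, so both arms carried a compound that activates WNT signalling downstream of the receptor. The list holds coordinates alone. It gives no height, read depth or library for any peak, so SOX2 ON and SOX2 OFF could not be compared, no value below has a replicate, and a gene region without a peak cannot be told apart from one below the calling threshold. Depth is therefore unknown, and nothing below is a test.

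In WNT signalling, secreted ligands bind Frizzled and LRP receptors and stop a destruction complex, built around Axin and APC and containing the kinase GSK3, from marking beta-catenin for degradation. Beta-catenin then enters the nucleus and joins TCF/LEF proteins, which sit on DNA through an HMG box and repress or activate their targets depending on their partners. In mouse ES cells TCF7L1 is known mainly as a repressor of pluripotency genes, and inhibiting GSK3 relieves that repression and favours self-renewal. OCT4 and SOX2 bind DNA together on a composite motif, an OCT octamer next to a SOX site, and SOX and TCF/LEF proteins share the HMG box fold while preferring different letters.

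The sequences that carry these motifs are shown first. The composite OCT4::SOX2 motif was written as the octamer ATTTGCAT followed by an A and the SOX site ACAATG (15 bases, at most 3 mismatches, either strand), and it was found in 5 of the 53 peaks. The closest match, with 1 mismatch, lay at chr11:52286567-52286581 on the minus strand, in a peak upstream of Tcf7. The matches at Axin2 (chr11:108887146-108887160, plus strand), Lef1 (chr3:131118113-131118127, plus strand) and Tcf7l1 (chr6:72758590-72758604, minus strand) had 3 mismatches each. One match per gene is printed below with 30 bases on each side, all from the plus strand of build GRCm38, and the capitals mark the 15 bases of the match, which for Tcf7 and Tcf7l1 read as the reverse complement of the motif.
Tcf7 composite: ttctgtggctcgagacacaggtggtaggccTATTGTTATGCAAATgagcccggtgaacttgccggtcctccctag
Axin2 composite: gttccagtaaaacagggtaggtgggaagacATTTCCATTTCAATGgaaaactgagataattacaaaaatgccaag
Lef1 composite: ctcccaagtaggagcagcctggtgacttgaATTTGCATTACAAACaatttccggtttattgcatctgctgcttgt
Tcf7l1 composite: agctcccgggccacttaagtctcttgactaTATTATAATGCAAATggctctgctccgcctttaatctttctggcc

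The TCF/LEF motif was written as CTTTGAT without mismatch, on either strand. It stood in the peak over the start of Sp5 and in a peak over internal starts of Axin2, both genes known as direct targets of beta-catenin and TCF. The Axin2 match (chr11:108921232-108921238) lay in an intron, 104 bp upstream of an internal Axin2 transcript start at position 108921336. The Sp5 peak held 2 matches, at chr2:70474819-70474825, 104 bp upstream of the only annotated Sp5 start, and at chr2:70475012-70475018, in the 5′ UTR 89 bp downstream of it. These stretches are printed from the plus strand of GRCm38, and the capitals mark the 7 bases of the match.
Axin2 TCF/LEF: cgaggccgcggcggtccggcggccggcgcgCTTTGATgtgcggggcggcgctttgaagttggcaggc
Sp5 TCF/LEF upstream: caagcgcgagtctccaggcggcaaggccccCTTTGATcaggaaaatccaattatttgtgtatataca
Sp5 TCF/LEF in the 5′ UTR: gagccgctattCTTTGATgattgggtagc

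All 10 genes had at least 1 peak, where 73% of the 21938 protein-coding genes did by the same rule. The 4 TCF/LEF factor genes held 35 of the 53 peaks and the other 6 genes held 18. Tcf7l1 had 13 peaks, Tcf7l2 had 10 and Lef1 had 9, Axin2 and T had 4 each, Tcf7, Ctnnb1 and Cdx1 had 3 each, and Gsk3b and Sp5 had 2 each. The median was 3.5 peaks per gene, against a median of 2 over all protein-coding genes. As many peaks as at Tcf7l1 were found at 61 protein-coding genes (0.278%), as many as at Tcf7l2 at 0.816%, and as many as at Lef1 at 1.31%.

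Gene length and the positions of the transcript starts set how much sequence the rule searched, from 100 kb for Sp5 to 259 kb for Tcf7l1. Peaks were therefore also counted per 100 kb of searched sequence. Lef1 had the highest density, 5.49 peaks per 100 kb (exact 95% Poisson interval 2.51 to 10.4), followed by Tcf7l1 with 5.02 (2.67 to 8.58), T with 3.96 (1.08 to 10.1) and Tcf7l2 with 3.9 (1.87 to 7.16). Axin2 (3.24), Cdx1 (3.0), Tcf7 (2.99), Ctnnb1 (2.31) and Sp5 (2.0) came next, and Gsk3b had the lowest density, 0.913 (0.111 to 3.3). Every interval overlapped that of its neighbour in this order, and those of Lef1 and Gsk3b, at the ends of it, overlapped as well. The 10 genes had a median density of 3.12 and a mean of 3.28 per gene, where all protein-coding genes had a median of 1.0 and a mean of 1.55, and pooled over the searched sequence of the 10 genes the density was 3.41 (2.56 to 4.46). These intervals and those that follow cover counting error only and take peaks as independent, which peaks around 1 gene may not be.

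Against protein-coding genes of like searched length (within 10%), 7 of the 10 genes had more peaks than the upper end of the middle 50% (Tcf7l1, Tcf7l2, Lef1, Tcf7, Axin2, Cdx1 and T), and Ctnnb1, Sp5 and Gsk3b did not. Tcf7l1 had 13 peaks where the middle 50% of 423 such genes had 1 to 5, and 1.89% had at least as many. Tcf7l2 had 10 where the middle 50% of 432 genes had 1 to 5, and 6.02% had at least as many. For Lef1, with 9, the middle 50% of 1358 genes was 1 to 4, and 1.84% had at least as many. For T the share with at least as many was 12.2%, for Axin2 20.7%, for Tcf7 and Cdx1 23.9%, for Ctnnb1 37.4%, for Sp5 42.3% and for Gsk3b 69.1%. The genes of like length are the same large pool for the short genes (13408 genes for Sp5 and Cdx1), so those shares are not independent of each other.

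**Figure D1:**
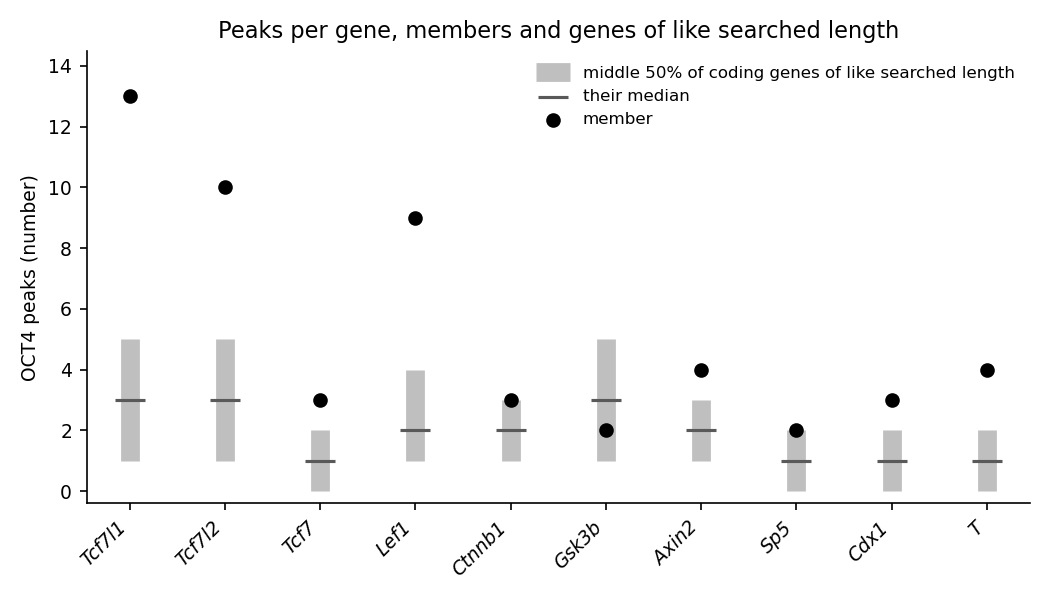
Number of OCT4 peaks (vertical axis) at each WNT and TCF pathway gene (black points), with the middle 50% (grey bars) and median (lines) of protein-coding genes whose searched length is within 10%. Tcf7l1, Tcf7l2 and Lef1, with 13, 10 and 9 peaks, lie farthest above their grey bars, Tcf7, Axin2, Cdx1 and T lie above theirs by 1 or 2 peaks, Ctnnb1 and Sp5 lie at the top of theirs, and Gsk3b with 2 lies inside its bar and below its median of 3.

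Most of these peaks were away from promoters. Of the 53 midpoints, 30 lay outside the gene, 21 in an intron and 2 in a 5′ UTR, and 25 were upstream of the most upstream start of their gene. The distance to the nearest start of the same gene had a median of 22.4 kb and ranged from 0.051 kb at Sp5 to 58.2 kb inside Tcf7l1, with 20 peaks within 10 kb and 33 farther away. A midpoint within 1 kb of a transcript start of a protein-coding gene was found for 4 of 53 peaks, or 7.55% (exact 95% interval 2.09 to 18.2%), where 13.8% of all peaks were that close. These 4 peaks belonged to Tcf7l2, Axin2, Sp5 and Cdx1, so 4 of 10 genes had a peak within 1 kb of an own start, where 16.5% of protein-coding genes did. That comparison was not matched for annotated starts, of which Tcf7l2 has 17, Axin2 7, and Sp5 and Cdx1 1 each. The Tcf7l2 peak lay near an internal start of a non-coding transcript. For 46 of the 53 peaks the pathway gene was also the nearest protein-coding gene by transcript start. For the other 7 it was T2 (2 peaks), Kcmf1, Slc6a7, Tgoln1, Ulk4 or Vdac1 (1 peak each). No matching share is given for the peaks of other protein-coding genes, so the count of 46 has no baseline. The next peak beyond the rule lay 51.9 kb from a start of Gsk3b and 52.3 kb from one of Tcf7l1, and for the other 8 genes 57.3 kb (Tcf7) to 93.6 kb (Tcf7l2) away.

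**Figure D2:**
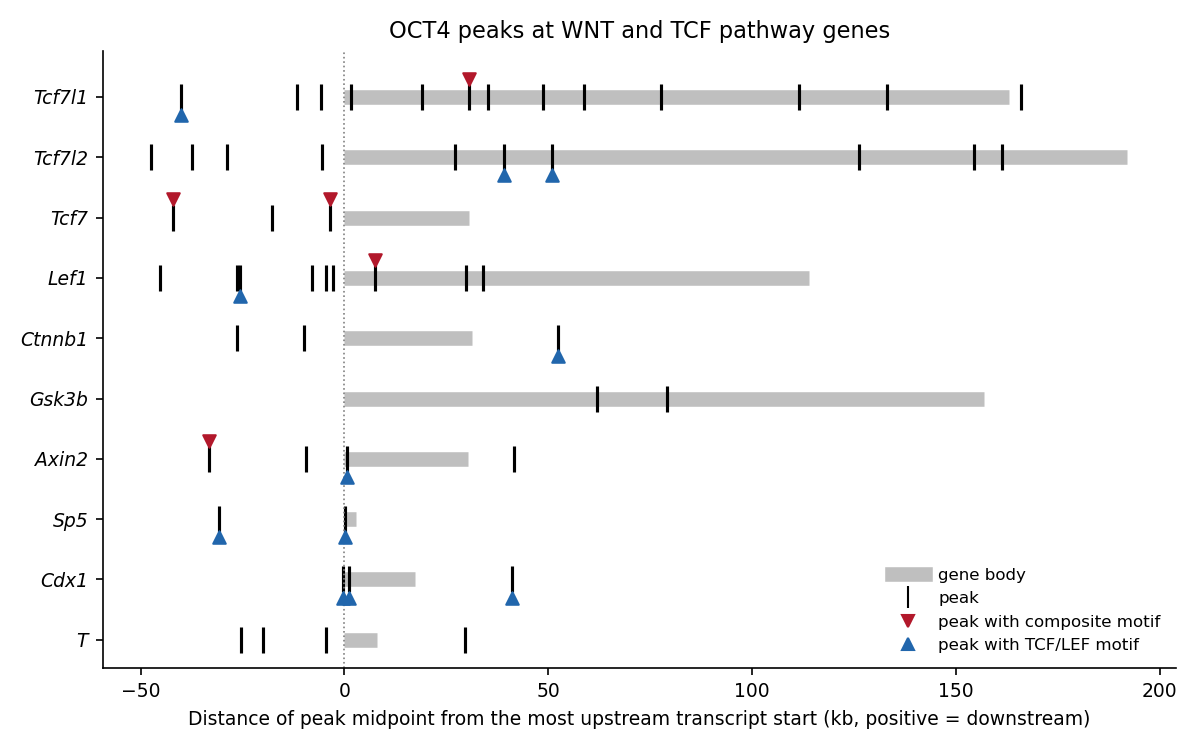
Position of each OCT4 peak (black ticks) relative to the most upstream transcript start of its gene (kb, positive values downstream in the direction of transcription), with gene bodies in grey, red triangles over peaks with a composite match and blue triangles under peaks with a TCF/LEF match. The 9 peaks inside Tcf7l1 are spread along its body, 6 of 9 Lef1 peaks and all 3 Tcf7 peaks lie upstream of the start, and no peak has both kinds of triangle.

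Tcf7l1 encodes the TCF/LEF protein that acts mainly as a repressor in ES cells. The gene spans chr6:72626378-72789254 on the minus strand, 163 kb in length, and 9 of its 13 peaks lay inside it, all in introns. A further 3 peaks were upstream, of which the nearer pair lay 5.86 and 11.6 kb from the most upstream start, and 1 lay beyond the 3′ end, where Tgoln1 was nearer. The peak closest to an own start was intronic (chr6:72787284-72787791, 508 bp), 1.06 kb downstream of a protein-coding transcript start. Together with the 2 nearest upstream peaks it made a run of 3 peaks, each within 10 kb of the next, over 13.7 kb (chr6:72787284-72800936). That run ended in the narrowest of the 53 peaks, 208 bp wide (chr6:72800729-72800936). The peak with the composite match printed above (chr6:72758455-72758865) was intronic, 29.9 kb from the nearest start, and the octamer within that match was complete. All 3 mismatches of the match fell in the A and the SOX site, so the SOX part was not complete. The farthest upstream peak (chr6:72829140-72829465) held the only TCF/LEF match at Tcf7l1. It lay nearer to Kcmf1, and 59.2% of its bases were repeat-masked.

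Tcf7l2 encodes a TCF/LEF factor that can activate or repress WNT targets. It is the longest of the 10 genes (chr19:55741820-55933654, plus strand, 192 kb), and 6 of its 10 peaks were intronic while 4 lay upstream. The peak closest to an own start (chr19:55896025-55896335, 311 bp) was in an intron, 0.518 kb downstream of an internal start that belongs to a non-coding processed transcript, 154 kb into the gene. It held none of the 4 motifs searched. The nearest peak to the most upstream start was 5.44 kb upstream of it (chr19:55736225-55736530). Farther upstream, 3 peaks formed a run of 18.9 kb (chr19:55694291-55713142), and 1 of these had an octamer. TCF/LEF matches stood in 2 neighbouring intronic peaks, chr19:55780932-55781250 and chr19:55792641-55792900, and the first of them also held an octamer. The second lay 49.9 kb from its nearest start and would have counted by the gene body alone. No Tcf7l2 peak had a composite match or a SOX core.

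Tcf7 encodes TCF1, a TCF/LEF factor that occurs both with and without the domain that binds beta-catenin. Its body (chr11:52252371-52283014, minus strand) held no peak, and all 3 of its peaks were upstream, at 3.55, 17.8 and 42.0 kb from the most upstream start. The nearest (chr11:52286294-52286840, 547 bp) carried the composite match printed above, 7 bp from the midpoint of the peak. The farthest (chr11:52324885-52325233) carried another, with 2 mismatches, at chr11:52325050-52325064 on the plus strand and 2 bp from the midpoint. That peak was nearer to a start of Vdac1 than to Tcf7. These were the only 2 of the 53 peaks with fewer than 3 mismatches to the composite motif, which makes 3.77% of them, against 2.21% of all peaks.

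Lef1 encodes LEF1, a TCF/LEF factor that is also a WNT target in many tissues. The gene spans chr3:131110471-131224356 on the plus strand (114 kb). It had 6 peaks upstream and 3 in introns, and Lef1 was the nearest protein-coding gene to all 9. The peak closest to an own start (chr3:131107607-131107835, 229 bp) was 2.75 kb upstream, and it ended a run of 3 peaks over 5.58 kb (chr3:131102256-131107835), 2 of which held a SOX core. A pair of peaks 26.2 and 25.6 kb upstream lay 0.66 kb apart, the closest neighbours among the 53. The nearer of the pair (chr3:131084656-131085141) held a TCF/LEF match 14 bp from its midpoint, and this match continued into the longer site CTTTGATGT. The composite match printed above was in the intronic peak chr3:131117932-131118213, 4.22 kb from the nearest start, where it covered a complete octamer. Its 3 mismatches all fell in the A and the SOX site, so the SOX part of the motif was not complete.

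Ctnnb1 and Gsk3b encode the transducer of the pathway, beta-catenin, and the kinase that marks it for degradation and that CHIR99021 inhibits. Ctnnb1 (chr9:120929216-120960507, plus strand) had no peak in its body. Its closest peak (chr9:120919161-120919478, 318 bp) was 9.9 kb upstream, another was 26.3 kb upstream, and the last, in the neighbouring gene Ulk4, held a TCF/LEF match and lay nearer to Ulk4. Gsk3b (chr16:38089001-38246084, plus strand, 157 kb) had 2 peaks, both in introns and none near its most upstream start. The closest (chr16:38150581-38151124, 544 bp) was 6.56 kb from an internal start and held an octamer. The other, 548 bp wide and 23.9 kb from that start, held a SOX core, but 97.4% of its bases were repeat-masked, the highest share among the 53 peaks. These 2 genes had 5 peaks in all, none within 5 kb of an own start and none with a composite match. A composite match was present in 11.5% of all peaks, so 5 peaks are too few to set the 2 genes apart. Tcf7l2, Sp5, Cdx1 and T had no composite match either.

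Axin2 encodes a scaffold of the destruction complex and is a standard readout of WNT activity, since beta-catenin and TCF raise its transcription. The gene (chr11:108920349-108950783, plus strand) had the widest of the 53 peaks, 753 bp (chr11:108920638-108921390), which covered internal starts and began downstream of the most upstream one. The midpoint of that peak lay in the 5′ UTR, 0.214 kb downstream of an annotated start and 0.665 kb downstream of the most upstream one. It was the peak richest in GC, at 72.9% where the 53 peaks had a median of 49.3% and all peaks one of 46.4%, and it carried the TCF/LEF match shown above, which read CTTTGATGT in full. A peak 9.53 kb upstream held none of the 4 motifs. The peak 33.2 kb upstream (chr11:108886955-108887293) had the Axin2 composite match with 3 mismatches, and its octamer was not complete. The fourth peak lay 18.2 kb from an internal start, beyond the 3′ end of the gene, and held none of the motifs.

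Sp5 encodes a zinc finger transcription factor of the Sp family that rises with WNT signalling in ES cells. It is the shortest of the 10 genes (chr2:70474923-70477729, plus strand, 2.81 kb), and its 2 peaks both held TCF/LEF matches. The start peak (chr2:70474727-70475221, 495 bp) had its midpoint 0.051 kb from the annotated start and carried the pair of matches shown above. The other (chr2:70443835-70444240, 406 bp) was 30.9 kb upstream and held a SOX core and the longer TCF/LEF site. RefSeq promoter windows on GRCm38.p6, which begin upstream of a transcript start and end just past it, were found for 9 of the 10 genes (15 windows). Cdx1 had no window, although the peak over its start also held a TCF/LEF match. Sp5 had the only window that overlapped a peak and the only one with a TCF/LEF match, so 6.67% of these windows held the motif where 3.73% of the 32851 RefSeq windows did. No window of the 9 genes held an octamer, where 1.74% of all RefSeq windows did, so 15 windows are too few to show a difference.

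T encodes Brachyury, the T-box factor of the primitive streak, whose transcription depends on WNT signals. The gene (chr17:8434423-8442496, plus strand) had 4 peaks, all outside its body. The closest (chr17:8429681-8430313, 633 bp) was 4.43 kb upstream and held none of the motifs. A pair 19.9 and 25.5 kb upstream lay inside the neighbouring gene T2 and was nearer to the start of T2. The last was 28.5 kb beyond an own start, downstream of the gene. Of the 4 peaks, 2 had a SOX core and none had a TCF/LEF match, an octamer or a composite match.

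Cdx1 encodes a caudal-type homeobox factor that responds to WNT in the posterior embryo. The gene lies on the minus strand of chromosome 18 (61018862 to 61036199), and each of its 3 peaks held a TCF/LEF match. The closest (61036197 to 61036828, 632 bp) had its midpoint 0.313 kb upstream of the single annotated start. The next (61034713 to 61035249, 537 bp) lay 1.22 kb downstream of the start in an intron and held 4 SOX cores besides the longer TCF/LEF site. These peaks had midpoints 1.53 kb apart. The third was 41.2 kb downstream of the start, beyond the 3′ end of the gene, and nearer to Slc6a7. None of the 3 had an octamer or a composite match.

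Motif content was next compared between the 53 peaks, all 26704 peaks and windows of the same width centred 5 kb to each side and free of peaks (104 windows for the 53 peaks). The composite motif was present in 5 of 53 peaks, 9.43% (exact 95% binomial interval 3.13 to 20.7%), where the share was 11.5% of all peaks and 2.88% of the flanking windows. The octamer was present in 6, 11.3% (4.27 to 23.0%), where it was 11% of all peaks and 1.92% of the flanking windows, and in 3 of the 6 it was part of a composite match. A SOX core, CCATTGT or CCTTTGT, was present in 12, 22.6% (12.3 to 36.2%), where it was 30.3% of all peaks and 10.6% of the flanking windows. For these 3 motifs the share of all peaks lay inside the interval of the 53 peaks. SOX cores stood at Tcf7l1 and Lef1 (3 peaks each), Cdx1 and T (2 each) and Gsk3b and Sp5 (1 each).

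Peaks with the TCF/LEF motif lay at 7 of the 10 genes. No such share is given for protein-coding genes, and the 10 genes had a mean of 5.3 peaks where all protein-coding genes had 1.98. The motif was present in 11 of the 53 peaks, 20.8% (10.8 to 34.1%). It was present in 9.05% of all peaks, which lay below that interval, and in 3.85% (1.06 to 9.56%) of the flanking windows, while the windows flanking all peaks had 6.98%. Under some settings the interval of the 53 peaks held the share of all peaks, although the share of the 53 peaks stayed higher. Restricted to the central 200 bp, the motif was present in 11.3% of the 53 peaks (4.27 to 23.0%), an interval that holds the 5.36% of all peaks. Among the 34 peaks in a gene body or within 10 kb of a start it was present in 17.6% (6.76 to 34.5%). That interval holds the 9.05% of all peaks, which were not restricted by distance. With CTTTGTT also allowed the share was 35.8% (23.1 to 50.2%), which holds the 27.6% of all peaks. Without the peaks that were mostly repeat-masked it was 19.6% (9.82 to 33.1%) where the list had 9.39%, and the longer site CTTTGATGT was present in 4 peaks, 7.55% (2.09 to 18.2%), where the list had 0.992%, both below the interval. CTTTGAT contains neither SOX core and shares the run CTTTG with CCTTTGT, and CTTTGTT shares a longer run, CTTTGT, with it. Among the peaks of Axin2, Sp5, Cdx1 and T, 6 of 13 held a match, 46.2% (19.2 to 74.9%), where the other 6 genes had 5 of 40, 12.5% (4.19 to 26.8%). This split was made after the values were seen, T contributed none of the 6, Lef1, itself a WNT target in many tissues, stood on the other side with 1 of 9, and the intervals overlap. No peak held both a composite and a TCF/LEF match, 0 of 53 (upper bound of the exact interval 6.72%), where 1.21% of all peaks did. In 26 of the 53 peaks none of the 4 motifs was found, so at least 1 was found in 50.9% where 48.6% of all peaks had one. A match describes letters only and was not tested as a binding site, and a peak without one says nothing about the factor.

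**Figure D3:**
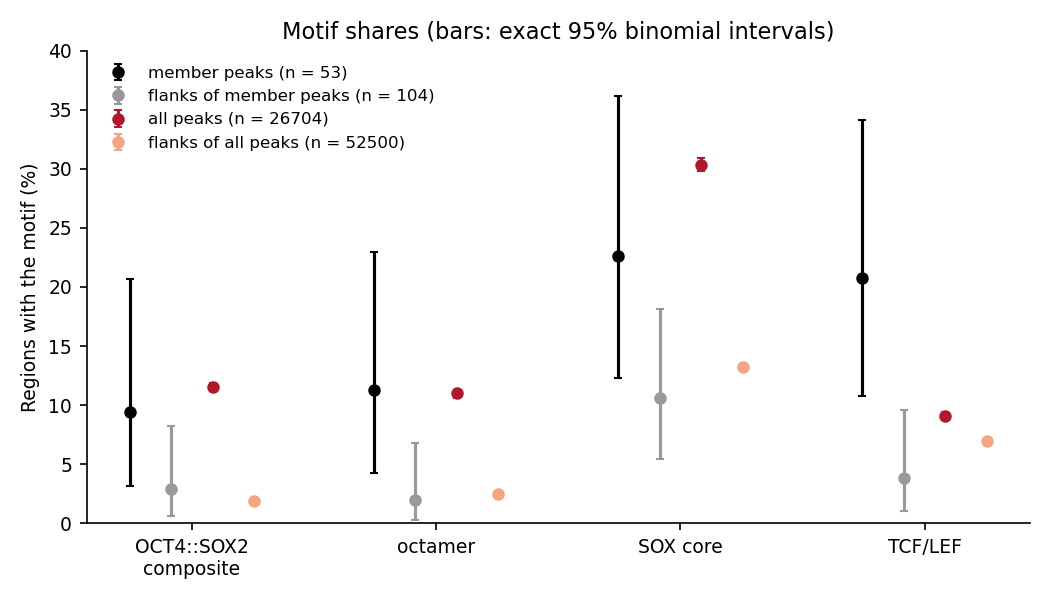
Share of regions (%) with each motif in the 53 peaks of the WNT and TCF pathway genes (black), their 104 flanking windows (grey), all 26704 peaks (red) and the 52500 windows flanking all peaks (orange), with exact 95% binomial intervals. The TCF/LEF share of the 53 peaks, 20.8%, stands above the 9.05% of all peaks for whole peaks, and the composite share, 9.43%, lies near the 11.5% of all peaks.

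The 53 peaks were close to the list in width, with a median of 339 bp (208 to 753 bp) against 352 bp, but held more GC and less repeat-masked sequence. Their GC content was 49.9 ± 6.26% (SD over 53 peaks) against 47.4 ± 6.17% over all peaks. Their mean repeat-masked share was 14.1% against 23.0%, and 2 of 53, 3.77% (0.46 to 13.0%), were more than 50% repeat-masked, where 15.6% of all peaks were. Whether these differences bear on the motif shares was not tested beyond the repeat filter given above. Their neighbours were somewhat closer, with a median of 11.6 kb to the next peak against 18.2 kb. Another peak lay within 10 kb of 21 of the 53, 39.6% (26.5 to 54.0%), where it did for 33.9% of all peaks. Such neighbours formed 9 runs of 2 or more peaks, and the 3 runs with 3 peaks were those at Lef1, Tcf7l1 and Tcf7l2.

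The rest of the pathway was read from a list of 87 other WNT genes grouped by role. Of these, 74 (85.1%) had a peak by the same rule, where the share over protein-coding genes was the 73% given above, and the median of 2 peaks per gene was that of all protein-coding genes. Among the ligands 15 of 19 had a peak, led by Wnt5a and Wnt8a with 4 each, and among the receptors 13 of 15, led by Fzd10 and Ror2 with 5 each. For ligand secretion, Porcn, the enzyme that attaches the lipid to WNT proteins, had 6 peaks, while Wls, their carrier to the cell surface, had 0. Of the secreted inhibitors 9 of 11 had a peak, with 4 each at Notum, which removes that lipid, and Sfrp2, which binds the ligands. The R-spondin axis, which sets receptor levels at the membrane, had a peak at 7 of 9 genes and no more than the 3 peaks of Lgr4, followed by Lgr5, Rnf43 and Znrf3 with 2 each.

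Median counts were higher for signal transduction genes and nuclear cofactors than for ligands, receptors, secreted inhibitors and the R-spondin axis. The 2 ligand secretion genes, Porcn and Wls, also had a median of 3. Of the genes for signal transduction and the destruction complex, 11 of 12 had a peak with a median of 3 per gene, led by Dvl3 (7 peaks), which relays the receptor signal, and Apc (6), a scaffold of the complex. All 11 nuclear cofactors had a peak, also with a median of 3, led by Tle1 (7) and Tle4 (6), corepressors that bind TCF/LEF proteins. Of 8 further targets 7 had a peak, led by Tnfrsf19 (9) and Cdx2 (4). Thus no gene of the 87 had as many peaks as Tcf7l1 or Tcf7l2, and Tnfrsf19 alone had as many as Lef1. These raw counts take no account of searched length, and the order changed with density. Per 100 kb, Dvl3 (6.99) and Porcn (6.0) lay above Lef1 (5.49), and Tnfrsf19 (5.28) lay above Tcf7l1 (5.02). Fzd10 (5.0), Wnt8a (4.0), Cdx2 (4.0) and Sfrp2 (3.98) lay above Tcf7l2 (3.9), and the remaining genes of the 87 lay below it. A composite match was found in a peak of 14 of the 87 genes, 16.1% where 17.1% of protein-coding genes had one, and 15 had a peak within 1 kb of an own start, 17.2% against the 16.5% given above. Searched length was not matched between roles, and its part in the difference was not tested.

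**Figure D4:**
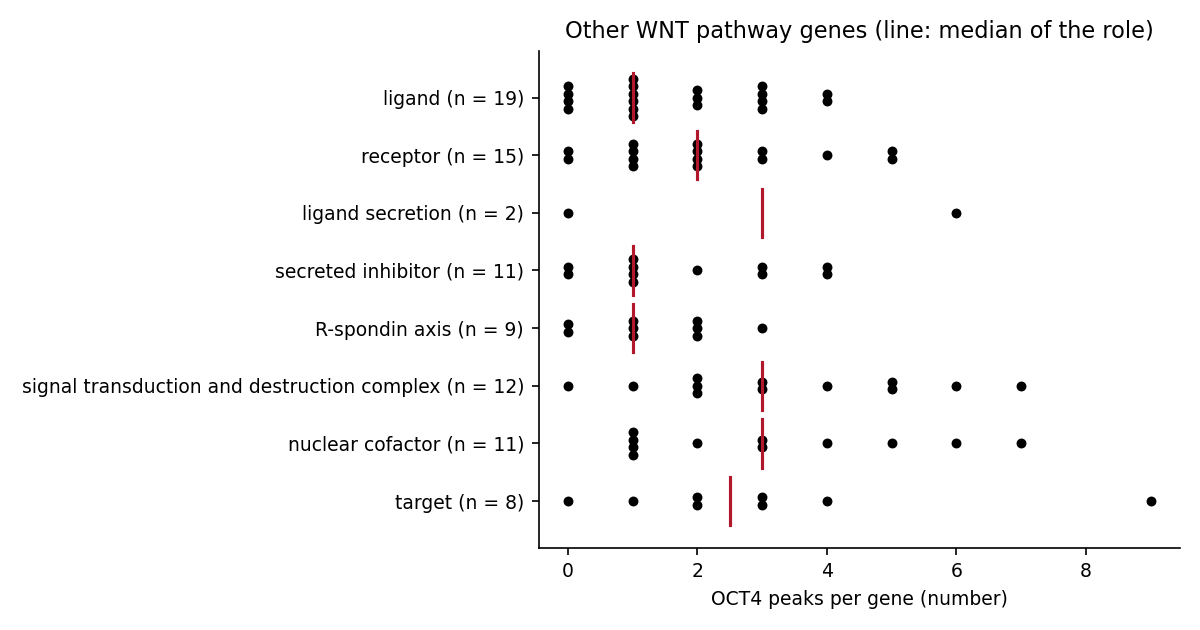
OCT4 peaks per gene (horizontal axis, number) for 87 other WNT pathway genes, 1 point per gene, grouped by role, with red lines at the median of each role. The medians are 1 for ligands, secreted inhibitors and the R-spondin axis, 2 for receptors and 2.5 for targets. They are 3 for ligand secretion (2 genes), signal transduction genes and nuclear cofactors, and the highest point is Tnfrsf19 with 9 peaks.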

How the data were processed

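The authors aligned paired-end ChIP-seq reads to mm10 (GRCm38) with STAR 2.6.1c and took out duplicates (Picard) and all reads off chromosomes 1 to 19, X and Y. Peaks came from MACS2 2.1.1.20160309. The study merged replicate alignments with SAMtools and sets of ChIP-seq peaks with BEDTools, and which step gave the deposited list is not stated. The deposited values are chromosome, start and end of each peak in the merged list. Which OCT4 libraries entered the merge is not given in the sources used here. A merge of peaks would widen them, and the list holds no value per library. Depth is unknown.

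Here, coordinates were read on GRCm38 with GENCODE M21, made 1-based, and assigned to genes by midpoint. Motifs were searched as consensus letters on both strands and not as weight matrices. The promoter-proximal distance was 1 kb from any transcript start of a protein-coding gene. Intervals are exact Clopper-Pearson for shares and exact Poisson for densities, at 95%. The search was tested on simulated data. The 10 genes, the list of 87 and the motifs were chosen with earlier results of these data known. By rule, the text names for each gene the peak nearest to a start, all peaks within 1 kb of a start, all composite matches and the widest and narrowest peak, and from the list of 87 the 2 genes with the most peaks per role. Other peaks named for a motif or their place in a run were picked after their values were seen. Sequences come from GRCm38, the promoter windows from RefSeq. Alternatives changed the distance, the starts, the width filter, the motif definition and the repeat filter. BRG1 and H3K27ac were not analysed here. The software was Python 3.11.15 with SciPy 1.17.1, NumPy 2.4.6 and, for plots, matplotlib 3.10.9.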

Additional observations from a re-analysis of the deposited data

How the results depend on the processing

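Of 45 alternative values for 10 results, 35 stayed within 1.5 times the main count or inside the main interval, and all 10 genes kept a peak under all 7 alternatives tried for that count. The tally of 35 follows each value alone, not its difference from all peaks or all protein-coding genes. The main intervals of the motif shares are wide, so it does not show that such differences were stable. With the distance shortened to 10 kb, 34 peaks remained at the genes, and 56.3% of the 87 other WNT genes had a peak (44.3% of protein-coding genes), while at 100 kb 94.3% did (85.7%). With peaks of at least 300 bp only, 33 peaks remained, the density was 2.12 per 100 kb, the median width 411 bp, and 74.7% of the 87 genes had a peak (60.3%). Allowing 4 mismatches put the composite share at 34.0% (35.9% of all peaks). The TCF/LEF share was 7.55% with CTTTGATGT and 35.8% with CTTTGTT also allowed. The unknown depth and the merge of libraries limit these values: peak presence is all the list gives. No paired analysis was possible because libraries have no values of their own in the peak list, and leaving out a replicate was not possible for the same reason.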
